A study of Mus musculus with 82 samples.

Results

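Purine nucleotides are broken down outside and inside cells by a short chain of enzymes, and 7 of its genes were followed in imiquimod-treated mouse ear skin: Entpd3, Entpd1, Nt5e, Ada, Pnp, Xdh and Uox. They were taken by gene name from 56941 listed genes, all 7 were found, and all 7 passed the filter on low counts in both experiments. Uox and Entpd3 were included because they were already known to respond strongly to imiquimod or to the drug in these data, so their treatment differences are given as descriptions, with no test. The other 5 members were taken as the enzymes that stand beside them in the chain.

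RNA was sequenced from right ear punches of female C57BL/6J Rj mice in 2 experiments, and the ages were not given in the sources used here. Ears received 5% imiquimod cream, a Toll-like receptor agonist that causes a psoriasis-like inflammation in mice, once daily from day 0, in a course of 8 applications that ended at day 7. Ears taken at days 2 and 5 were sampled before that course ended. The drug, IDOR-1117-2520, blocks the chemokine receptor CCR6 and was given in drinking water. In the time course, ears were taken at days 2, 5 and 8 from 3 groups: imiquimod with the drug, which was begun before the first application, imiquimod alone, and a sham group whose treatment label is vehicle. Each had 6 libraries a day, except for 4 sham libraries at day 5, which made 52. The start-day experiment had 30 libraries in 5 groups of 6: imiquimod with the drug from day 0, from day 3 or from day 5, imiquimod alone, and sham. Its time label is day 8 for the sham, imiquimod and day 0 start groups, day 5 for the day 3 start and day 3 for the day 5 start, and the day of sampling of these last groups is not stated otherwise. The label of day 3 comes before the drug start on day 5, so it cannot be the day those ears were taken. The labels do not say that each library is a separate mouse, so p-values measure the spread between these libraries.

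Extracellular ATP is a danger signal that activates P2 receptors on immune and epithelial cells. Ectonucleoside triphosphate diphosphohydrolases, among them CD39 (Entpd1) and NTPDase3 (Entpd3), remove phosphates from ATP and ADP, CD73 (Nt5e) turns the resulting AMP into adenosine, an anti-inflammatory ligand, and adenosine deaminase (Ada) turns adenosine into inosine. Inside cells purine nucleoside phosphorylase (Pnp) releases hypoxanthine and guanine, xanthine dehydrogenase (Xdh) oxidises hypoxanthine and xanthine to uric acid, and urate oxidase (Uox), a peroxisomal enzyme of the mouse liver whose gene is inactive in humans, oxidises uric acid further.

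The upstream sequences of the members with the widest range of levels, Uox and Entpd3, and of Nt5e, the member that was lower with imiquimod, are shown first. Uox and Entpd3 were the members furthest above sham with imiquimod at days 5 and 8, and Nt5e moved the opposite way. Each is the 250 bases before the RefSeq gene start in build GRCm38.p6, written in the direction of the gene, with matches to the searched motifs in capitals. RefSeq held such an entry for 6 of the 7 members, and Xdh had none and was not searched. The Uox window is chr3:146596899-146597148, plus strand, the Entpd3 window chr9:120539568-120539817, plus strand and the Nt5e window chr9:88327359-88327608, plus strand.
Uox: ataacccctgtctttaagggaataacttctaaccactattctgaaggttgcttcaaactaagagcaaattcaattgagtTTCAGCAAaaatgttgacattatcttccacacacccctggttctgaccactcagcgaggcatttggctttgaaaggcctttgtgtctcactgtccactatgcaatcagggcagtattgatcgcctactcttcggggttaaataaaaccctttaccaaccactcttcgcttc
Entpd3: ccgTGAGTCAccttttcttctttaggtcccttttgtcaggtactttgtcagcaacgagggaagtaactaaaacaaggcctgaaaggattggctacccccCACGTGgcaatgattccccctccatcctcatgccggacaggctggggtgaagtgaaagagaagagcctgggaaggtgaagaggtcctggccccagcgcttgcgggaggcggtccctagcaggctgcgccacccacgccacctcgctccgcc
Nt5e: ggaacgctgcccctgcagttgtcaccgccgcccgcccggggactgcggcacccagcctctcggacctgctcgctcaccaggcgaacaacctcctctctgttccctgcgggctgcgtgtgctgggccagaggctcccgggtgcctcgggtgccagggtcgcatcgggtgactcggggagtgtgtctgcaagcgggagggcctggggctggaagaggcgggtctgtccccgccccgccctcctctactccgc

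The windows were searched on both strands for AP-1 (TGANTCA), STAT (TTCNNNGAA), C/EBP (TTGCNNAA), IRF (GAAA, any 2 bases, GAAA) and HIF (ACGTG) motifs. The Uox window held 1 C/EBP match on the minus strand, 171 bases before the start, a motif found in 9.56% of 32851 mouse windows of this length. The Entpd3 window held 1 AP-1 match 247 bases before the start (6.75% of windows) and a palindromic CACGTG, which counts as a HIF match on each strand (16.6% of windows) and whose first bases lie 151 and 150 bases before the start. The Nt5e window, like those of Entpd1, held no match. Elsewhere Ada had a STAT match at 90 bases before the start (7.02% of windows) and Pnp a palindromic C/EBP match at 132 bases. None of the members' searched windows had an IRF match (2.98% of windows). A match is a stretch of letters and no evidence of binding. The RefSeq start of Uox lies 26723 bases downstream of the gene start in GENCODE M21, so these letters belong to 1 of its annotated starts. The same holds for Pnp (13221 bases), Nt5e (412 bases) and the downstream RefSeq start of Entpd1 (47404 bases).

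Libraries of the time course held 13098687 to 35363262 estimated counts with 18780 genes tested, and those of the start-day experiment 24074053 to 35545765 with 18434 genes tested. Levels below are counts scaled to library size (CPM), given for the lowest, the median and the highest library of a group, and a called difference has an adjusted p under 0.05 in edgeR's quasi-likelihood test, adjusted over all tested genes. CPM depends on transcript length, so levels are compared between groups and not between genes. Markers of keratinocytes, fibroblasts, endothelium and macrophages were detected in every library, as in skin. Hepatocytes are the cells best known for Uox, and the summed level of 8 hepatocyte markers was 0.410 to 2.72 CPM over all 82 libraries, with Tat at 0 in every library of 4 groups and Fgb in every library of 1. Summed T cell markers were 16.3 to 41.02 CPM and mast cell markers 96.5 to 255 CPM over all libraries. Day 2 imiquimod libraries 9 and 11 stood apart from the rest of their group in earlier results of these data. Their summed level of 4 neutrophil genes was 45.1 and 41.96 CPM, against 10.1 to 21.6 CPM in the other 4 libraries of the group, and day 2 values that move without them are given beside the results.

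Imiquimod ears had higher Entpd1, Ada, Pnp and Xdh and lower Nt5e than sham ears at every time, and all 5 of the 5 tested members were called each time, 4 higher and 1 lower. Of all tested genes, 29.2% were called higher and 28.5% lower at day 2, 34.6% higher and 35.9% lower at day 5, 34.5% and 33.6% at day 8, and 38.1% and 39.9% in the start-day experiment. With the drug, Xdh, Entpd1 and Ada were lower than with imiquimod alone at day 5 and in the start-day experiment, where Ada was called from days 0 and 3 but not from day 5. Nt5e and Pnp were not called between drug and imiquimod ears at any time. Called lower were 2 of the 5 tested members at day 2, where 6.9% of all genes were called higher and 9.61% lower. The count was 3 at day 5 (18.3% higher and 17.2% lower) and 0 at day 8 (1.22% and 0.335%). With the drug from day 0 it was 3 (18.2% and 16.9%), from day 3 again 3 (18% and 16.4%), and from day 5 it was 2 (15% and 12.7%). None of the 5 was called higher with the drug than with imiquimod alone. The median log2 fold change of the 5 tested members with imiquimod against sham was 0.57, 1.59, 1.17 and 1.19 at days 2, 5 and 8 and in the start-day experiment, where that of all genes was -0.03, -0.04, -0.01 and -0.02. With the drug against imiquimod it was -0.23, -0.49 and -0.13 at days 2, 5 and 8 and -0.34, -0.24 and -0.21 for the starts at days 0, 3 and 5, where that of all genes lay from 0.00 to 0.02. The imiquimod comparisons of 1 experiment share libraries with its drug comparisons, so the 2 kinds of difference are not independent.

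**Figure D1:**
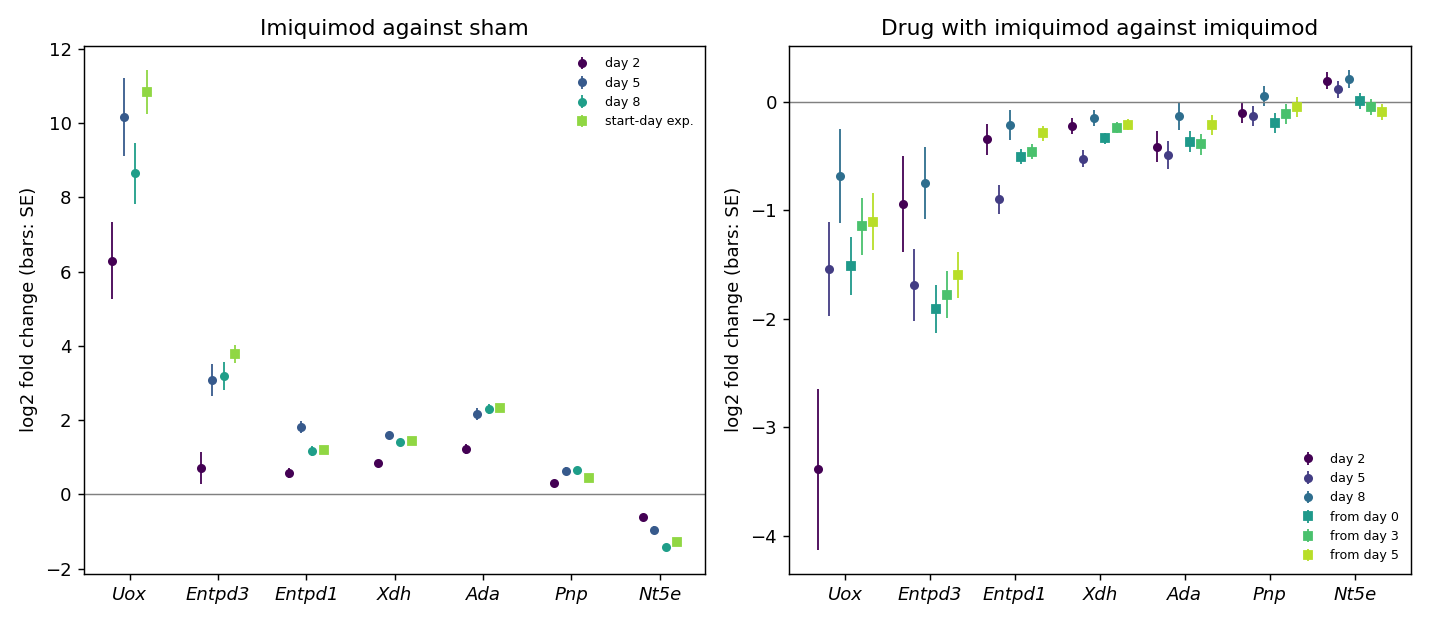
Log2 fold changes of the 7 members with their standard errors (vertical axis), with imiquimod against sham on the left and the drug with imiquimod against imiquimod on the right; circles are days of the time course and squares the start-day experiment. Nt5e is the member below 0 in every imiquimod comparison, and Uox, Entpd3, Entpd1, Xdh and Ada are below 0 in every drug comparison.

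Entpd3 encodes a membrane enzyme that removes phosphates from extracellular ATP and ADP. At day 2 it had 0.333, 0.534 and 0.668 CPM in ears given imiquimod and the drug, 0.412, 1.06 and 1.75 CPM in imiquimod ears and 0.515, 0.587 and 0.855 CPM in sham ears. These ranges overlapped, and only imiquimod libraries passed 1 CPM. At day 5 it had 0.696, 1.52 and 7.61 CPM with the drug, 4.37, 8.77 and 10.4 CPM with imiquimod alone and 0.872, 0.922, 0.955 and 0.959 CPM in the 4 sham libraries. All imiquimod libraries were above all sham libraries, and 1 drug library, number 36, stood among the imiquimod libraries while the others were at or below 2.297 CPM. At day 8 the values were 1.66, 3.42 and 5.33 CPM with the drug, 2.72, 6.08 and 8.503 CPM with imiquimod and 0.488, 0.6305 and 0.828 CPM in sham ears. Both treated groups were then above every sham library and overlapped each other. The start-day experiment gave 1.39, 2.53 and 3.08 CPM with the drug from day 0, 1.61, 2.77 and 3.48 CPM from day 3, 1.48, 2.97 and 4.55 CPM from day 5, 6.697, 8.58 and 13.3 CPM with imiquimod alone and 0.379, 0.7498 and 0.856 CPM in sham ears. Every drug library was below every imiquimod library and above every sham library.

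As a description, the log2 fold change of Entpd3 with imiquimod against sham was 0.71 ± 0.42 (SE) at day 2, 3.08 ± 0.42 at day 5, 3.20 ± 0.38 at day 8 and 3.78 ± 0.25 in the start-day experiment. With the drug against imiquimod it was -0.94 ± 0.44 at day 2, -1.69 ± 0.33 at day 5 and -0.75 ± 0.33 at day 8, and -1.91 ± 0.22, -1.78 ± 0.22 and -1.59 ± 0.21 for starts at days 0, 3 and 5. The day 5 value was -2.48 without drug library 36, which also held the highest Ada and Uox values of its group. That library's summed level of 4 neutrophil genes was 94.2 CPM, with the next drug library of day 5 at 46.7 CPM. Against sham, ears with the drug differed by -0.24 at day 2, 1.39 at day 5 (0.60 without library 36 and 0.72 with limma voom) and 2.45 at day 8, and by 1.87, 2.00 and 2.18 for the 3 starts.

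Uox was at or near 0 in sham skin. Of 22 sham libraries, 18 held 3 Uox counts or fewer, 7 held none, the most was 7, and the sum over all 22 was 39 counts. At day 2 it had 0, 0.508 and 1.55 CPM in ears given imiquimod and the drug, 0.791, 3.001 and 25.2 CPM in imiquimod ears and 0, 0.0397 and 0.284 CPM in sham ears. Every imiquimod library was above every sham library, the drug group overlapped both, and imiquimod library 11 held the highest value, with the next at 7.00 CPM. At day 5 the values were 2.58, 25.9 and 34.5 CPM with the drug, 36.1, 68.3 and 88.4 CPM with imiquimod and 0, 0, 0.03996 and 0.166 CPM in the 4 sham libraries. The 3 groups did not overlap. At day 8 they were 7.48, 24.97 and 55.1 CPM with the drug, 36.99, 42.97 and 55.6 CPM with imiquimod and 0, 0.09198 and 0.299 CPM in sham ears. The drug and imiquimod groups overlapped, and both were above sham. In the start-day experiment Uox had 22.4, 31.8 and 46.4 CPM with the drug from day 0, 28.9, 38.4 and 60.4 CPM from day 3, 14.1, 39.3 and 76.8 CPM from day 5, 75.7, 101 and 109.9 CPM with imiquimod alone and 0, 0.0329 and 0.134 CPM in sham ears. The starts at days 0 and 3 lay wholly below imiquimod alone, and the start at day 5 overlapped it.

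As a description, the log2 fold change of Uox with imiquimod against sham was 6.30 ± 1.04 at day 2, 10.17 ± 1.05 at day 5, 8.65 ± 0.82 at day 8 and 10.84 ± 0.59 in the start-day experiment. With so few sham counts the fitted size depends on the prior count and on single libraries. The day 2 value was 5.28 without imiquimod library 11, 5.13 without libraries 9 and 11 and 7.26 without sham library 6, the day 5 value was 11.72 without sham library 21, and the day 8 value 9.26 without sham library 42. With the drug against imiquimod, the difference was -3.39 ± 0.74 at day 2, -1.54 ± 0.44 at day 5 and -0.68 ± 0.43 at day 8, and -1.52 ± 0.27, -1.15 ± 0.26 and -1.11 ± 0.26 for starts at days 0, 3 and 5. The day 2 value was -2.37 without imiquimod library 11 and -2.22 without libraries 9 and 11. Against sham, ears with the drug differed by 2.91 ± 1.63 at day 2 (3.88 without sham library 6), 8.63 at day 5 (10.18 without sham library 21), 7.97 at day 8 (8.58 without sham library 42), and 9.33, 9.70 and 9.74 for the 3 starts.

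**Figure D2:**
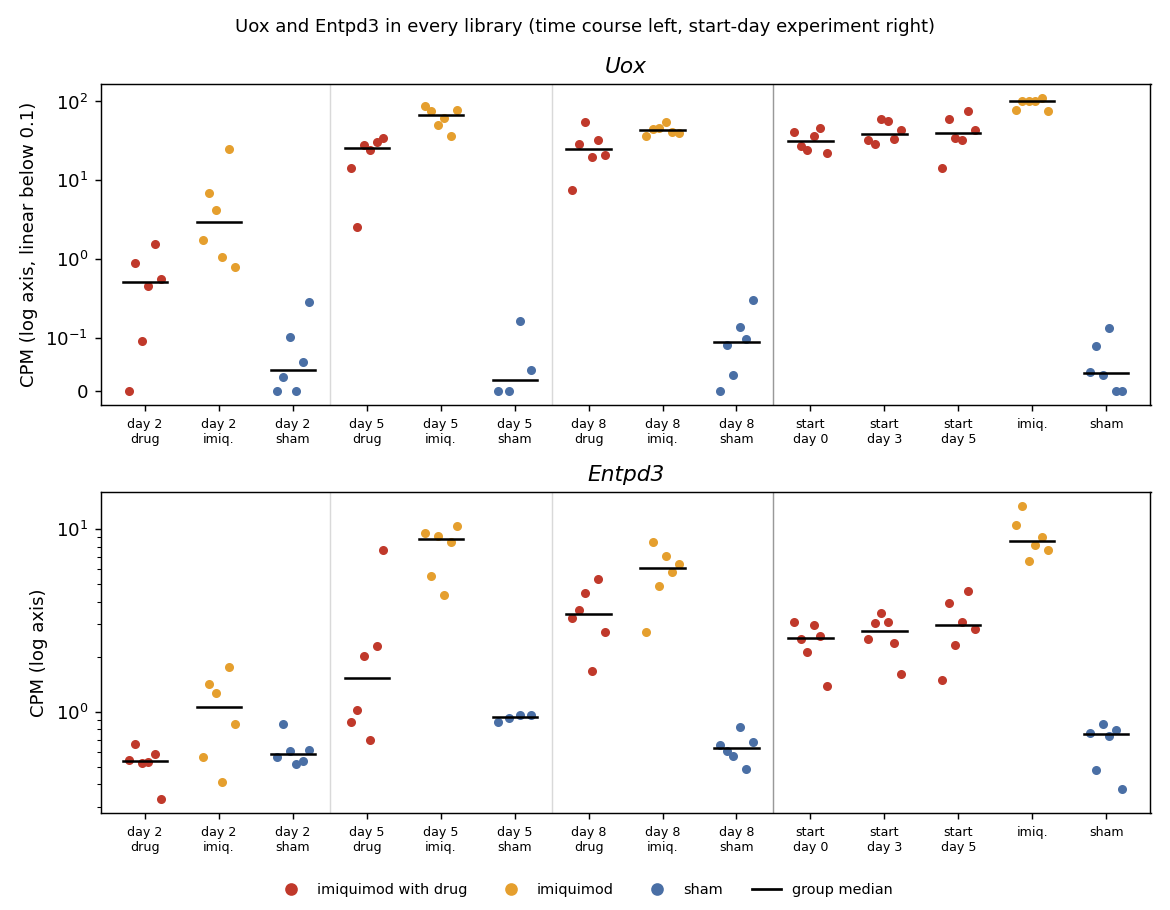
CPM of Uox (upper panel, log axis, linear below 0.1) and Entpd3 (lower panel, log axis) in every library by group; points are libraries and bars are group medians. Uox reached a median of 68.3 CPM at day 5 of imiquimod, against 0.01998 CPM in sham ears, and Entpd3 reached 8.77 CPM, against 0.939 CPM.

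Entpd1, the CD39 enzyme of leukocytes and endothelium, rose with imiquimod and was lower with the drug at day 5. At day 2 it had 18.96, 20.99 and 25.5 CPM with the drug, 21.97, 26.1 and 33.7 CPM with imiquimod alone and 14.02, 17.7 and 25.8 CPM in sham ears. The 3 ranges overlapped one another. At day 5 the values were 23.01, 30.4 and 48.7 CPM with the drug, 49.1, 57.9 and 79.1 CPM with imiquimod alone and 15.8, 16.4, 17.6 and 18.004 CPM in sham ears, and the groups did not overlap, although the highest drug library came within 1 CPM of the lowest imiquimod library. At day 8 they were 28.1, 32.9 and 48.5 CPM with the drug, 38.02, 41.9 and 45.7 CPM with imiquimod alone and 17.02, 18.5 and 20.2 CPM in sham ears, and the sham group alone stood apart. The start-day experiment gave 33.4, 35.1 and 37.8 CPM with the drug from day 0, 32.6, 35.9 and 40.8 CPM from day 3, 34.4, 41.2 and 49.05 CPM from day 5, 47.8, 48.8 and 56.1 CPM with imiquimod alone and 20.7, 21.3 and 24.5 CPM in sham ears. The starts at days 0 and 3 lay below imiquimod alone without overlap.

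The log2 fold change of Entpd1 with imiquimod against sham was 0.57 ± 0.14 at day 2 (adjusted p = 0.000557), 1.82 ± 0.16 at day 5 (adjusted p = 8.80e-14), 1.17 ± 0.14 at day 8 (adjusted p = 3.90e-10) and 1.19 ± 0.07 in the start-day experiment (adjusted p = 3.75e-16). For drug ears against imiquimod ears it was -0.35 ± 0.14 at day 2 (adjusted p = 0.0851, and 0.0479 with DESeq2), -0.90 ± 0.14 at day 5 (adjusted p = 1.61e-06) and -0.21 ± 0.14 at day 8 (adjusted p = 0.508). Starts at days 0, 3 and 5 gave -0.51 ± 0.07 (adjusted p = 2.19e-06), -0.46 ± 0.07 (adjusted p = 8.71e-06) and -0.29 ± 0.07 (adjusted p = 0.00226). Without imiquimod library 7 the day 2 drug difference was also called (adjusted p = 0.0470).

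Nt5e, which makes adenosine from AMP on the cell surface, fell with imiquimod at every time, and no drug comparison against imiquimod was called. Day 2 values were 30.4, 33.6 and 37.8 CPM with the drug, 26.6, 28.5 and 35.5 CPM with imiquimod and 39.5, 43.1 and 51.2 CPM in sham ears. At day 5 the values were 21.7, 26.1 and 32.4 CPM with the drug, 21.2, 23.6 and 28.4 CPM with imiquimod and 43.1, 43.4, 47.5 and 52.1 CPM in sham ears. Every sham library was above every treated library on both days, and the treated groups overlapped. At day 8 the values were 21.7, 22.98 and 25.5 CPM with the drug, 17.3, 20.5 and 21.9 CPM with imiquimod and 46.4, 52.6 and 60.5 CPM in sham ears. The start-day experiment gave 20.4, 21.2 and 25.7 CPM with the drug from day 0, 19.4, 20.9 and 23.2 CPM from day 3, 17.9, 19.8 and 25.5 CPM from day 5, 19.2, 21.1 and 25.7 CPM with imiquimod alone and 49.995, 52.5 and 57.1 CPM in sham ears. Sham ears again stood above all treated ears, which overlapped one another.

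The log2 fold change of Nt5e with imiquimod against sham was -0.60 ± 0.08 at day 2 (adjusted p = 8.24e-09), -0.95 ± 0.09 at day 5 (adjusted p = 8.63e-14), -1.40 ± 0.08 at day 8 (adjusted p = 9.89e-21) and -1.29 ± 0.07 in the start-day experiment (adjusted p = 4.86e-17). Drug against imiquimod ears gave 0.19 ± 0.08 at day 2 (95% interval 0.0327 to 0.356, adjusted p = 0.0875), 0.11 at day 5 (adjusted p = 0.284) and 0.21 at day 8 (adjusted p = 0.199). The day 2 value was 0.26 and called (adjusted p = 0.0181) without imiquimod library 10. For the starts at days 0, 3 and 5 it lay between -0.10 and 0.00 (adjusted p = 0.378 to 0.975), and its sign from days 0 and 3 changed between settings. Summed markers of several cell types moved with Nt5e across groups. Over the 52 libraries of the time course, r with the log2 level of Nt5e was 0.91 for Schwann cell, 0.84 for adipocyte and 0.51 for fibroblast markers, and after subtracting group means 0.16, 0.13 and -0.08. Over the 30 start-day libraries these were 0.95, 0.91 and 0.93, and 0.11, 0.23 and -0.13. Of 13 marker lists, sebaceous gland had the highest r after that subtraction, 0.38 over the 52 libraries and 0.48 over the 30. Before subtraction its r was 0.47 and 0.67. T cell markers gave 0.72 and 0.78 (-0.02 and -0.38 after subtraction). Keratinocyte markers went the other way, at -0.90 and -0.97 (0.15 and -0.23 after subtraction). The Schwann cell sum at day 8 was 227 to 381 CPM with the drug, 198 to 322 CPM with imiquimod and 737 to 907 CPM in sham ears. At day 5 the fibroblast sum was 3245 to 4065 CPM with the drug, 4314 to 5196 CPM with imiquimod and 4697 to 6154 CPM in sham ears. The fibroblast sums of the drug and imiquimod groups overlapped at days 2 and 8. They were 3589 to 4639 and 4171 to 5238 CPM at day 2, and 3237 to 5175 and 4542 to 5576 CPM at day 8. The part of these cells in the Nt5e difference was not tested. In bulk tissue fewer cells of a type and less RNA per cell cannot be told apart.

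Ada, which deaminates adenosine to inosine, rose with imiquimod at every time. In ears of day 2 Ada had 3.95, 5.76 and 7.38 CPM with the drug, 4.804, 8.46 and 9.06 CPM with imiquimod alone and 2.34, 3.39 and 4.06 CPM in sham ears, and at day 5 8.82, 10.2 and 14.5 CPM with the drug, 13.65, 14.9 and 17.4 CPM with imiquimod alone and 2.77, 3.28, 3.53 and 3.98 CPM in sham ears. Imiquimod and sham did not overlap on either day, and at day 5 drug library 36 was the only drug library in the imiquimod range. At day 8 the values were 12.1, 15.1 and 15.96 CPM with the drug, 14.2, 16.2 and 16.8 CPM with imiquimod alone and 2.27, 3.27 and 3.91 CPM in sham ears, with overlap between the treated groups. The start-day experiment gave 11.5, 13.9 and 17.3 CPM with the drug from day 0, 10.97, 13.8 and 15.5 CPM from day 3, 13.02, 15.1 and 18.1 CPM from day 5, 16.2, 18.1 and 19.2 CPM with imiquimod alone and 2.83, 3.52 and 3.97 CPM in sham ears. The start at day 3 lay below imiquimod alone without overlap.

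The log2 fold change of Ada with imiquimod against sham was 1.22 ± 0.15 at day 2 (adjusted p = 4.54e-10), 2.16 ± 0.16 at day 5 (adjusted p = 1.28e-16), 2.30 ± 0.14 at day 8 (adjusted p = 1.11e-19) and 2.34 ± 0.11 in the start-day experiment (adjusted p = 1.48e-19). For drug against imiquimod ears it was -0.41 ± 0.14 at day 2 (adjusted p = 0.0349), -0.49 ± 0.13 at day 5 (adjusted p = 0.00254) and -0.13 ± 0.13 at day 8 (adjusted p = 0.704). It was -0.37 ± 0.10 from day 0 (adjusted p = 0.00326), -0.39 ± 0.10 from day 3 (adjusted p = 0.00185) and -0.21 ± 0.10 from day 5 (adjusted p = 0.0968, and 0.0434 without the day 5 start library 14).

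Pnp, which splits inosine and guanosine, rose least among the members called higher, and its counts are uncertain. Its gene model overlaps Gm49342 by 18620 bases and Pnp2 by 8758 bases on the same strand, and 17.5% and 15.1% of its stretches of 31 bases also occur in them. At day 2 Pnp had 33.2, 35.6 and 37.7 CPM with the drug, 31.95, 38.8 and 41.9 CPM with imiquimod alone and 25.5, 31.02 and 34.8 CPM in sham ears, and the groups overlapped. At day 5 the values were 37.8, 44.7 and 58.4 CPM with the drug, 48.05, 49.96 and 53.4 CPM with imiquimod alone and 26.96, 28.1, 35.8 and 39.2 CPM in sham ears, and at day 8 39.6, 47.4 and 58.999 CPM with the drug, 42.5, 46.4 and 51.2 CPM with imiquimod alone and 23.8, 29.9 and 35.02 CPM in sham ears. Imiquimod ears were above sham ears without overlap on both days, and drug ears overlapped imiquimod ears. The start-day experiment gave 27.7, 33.7 and 40.5 CPM with the drug from day 0, 33.8, 35.4 and 39.7 CPM from day 3, 29.05, 39.02 and 44.9 CPM from day 5, 31.9, 38.2 and 46.98 CPM with imiquimod alone and 25.7, 28.3 and 32.2 CPM in sham ears, with imiquimod and sham overlapping by their nearest libraries. The log2 fold change with imiquimod against sham was 0.31 ± 0.09 at day 2 (adjusted p = 0.00385), 0.62 ± 0.10 at day 5 (adjusted p = 5.53e-07), 0.66 ± 0.09 at day 8 (adjusted p = 1.54e-08) and 0.44 ± 0.09 in the start-day experiment (adjusted p = 0.000102). Against imiquimod the drug gave -0.10, -0.13 and 0.05 at days 2, 5 and 8 and -0.20, -0.11 and -0.05 for the 3 starts, none called (adjusted p = 0.106 to 0.8603). With the counts of Pnp, Pnp2 and Gm49342 summed, the drug difference was called at day 5 (-0.25, adjusted p = 0.00660), from day 0 (-0.16, adjusted p = 0.0498) and from day 3 (-0.17, adjusted p = 0.0326), in a setting added after the data were seen. From day 0 the difference of Pnp alone was also called without imiquimod library 12 (-0.25) or without drug library 29 (-0.25).

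Xdh, which makes uric acid, the substrate of Uox, rose with imiquimod at every time and was lower with the drug at day 5 and for each start day. Ears at day 2 had 124, 135 and 143 CPM with the drug, 133, 154 and 188 CPM with imiquimod and 79.2, 87.1 and 94.6 CPM in sham ears. At day 5 the values were 143, 177 and 229 CPM with the drug, 247, 265 and 270.3 CPM with imiquimod and 82.3, 85.5, 87.99 and 91.2 CPM in sham ears. All treated libraries exceeded all sham libraries on both days, and at day 5 all drug libraries were below all imiquimod libraries. At day 8 they were 176, 193 and 227 CPM with the drug, 196, 227 and 231 CPM with imiquimod alone and 71.5, 83.7 and 95.5 CPM in sham ears, and the treated groups overlapped. The start-day experiment gave 182, 199 and 209 CPM with the drug from day 0, 197, 216 and 221 CPM from day 3, 173, 218 and 239.6 CPM from day 5, 243, 248 and 258 CPM with imiquimod alone and 86.7, 91.1 and 97.9 CPM in sham ears. None of the 3 drug groups there overlapped imiquimod alone or sham.

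The log2 fold change of Xdh with imiquimod against sham was 0.85 ± 0.08 at day 2 (adjusted p = 1.56e-13), 1.59 ± 0.09 at day 5 (adjusted p = 5.86e-21), 1.41 ± 0.08 at day 8 (adjusted p = 1.60e-21) and 1.43 ± 0.05 in the start-day experiment (adjusted p = 2.17e-22). Set against imiquimod, the drug gave -0.23 ± 0.08 at day 2 (adjusted p = 0.0328), -0.52 ± 0.07 at day 5 (adjusted p = 5.42e-07) and -0.15 ± 0.08 at day 8 (adjusted p = 0.347). For the starts it was -0.34 ± 0.05 from day 0 (adjusted p = 4.21e-06), -0.24 ± 0.05 from day 3 (adjusted p = 0.000337) and -0.21 ± 0.05 from day 5 (adjusted p = 0.00191). Of its stretches of 31 bases, 5.08% also occur in transcripts of Ppp2r5a.

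**Figure D3:**
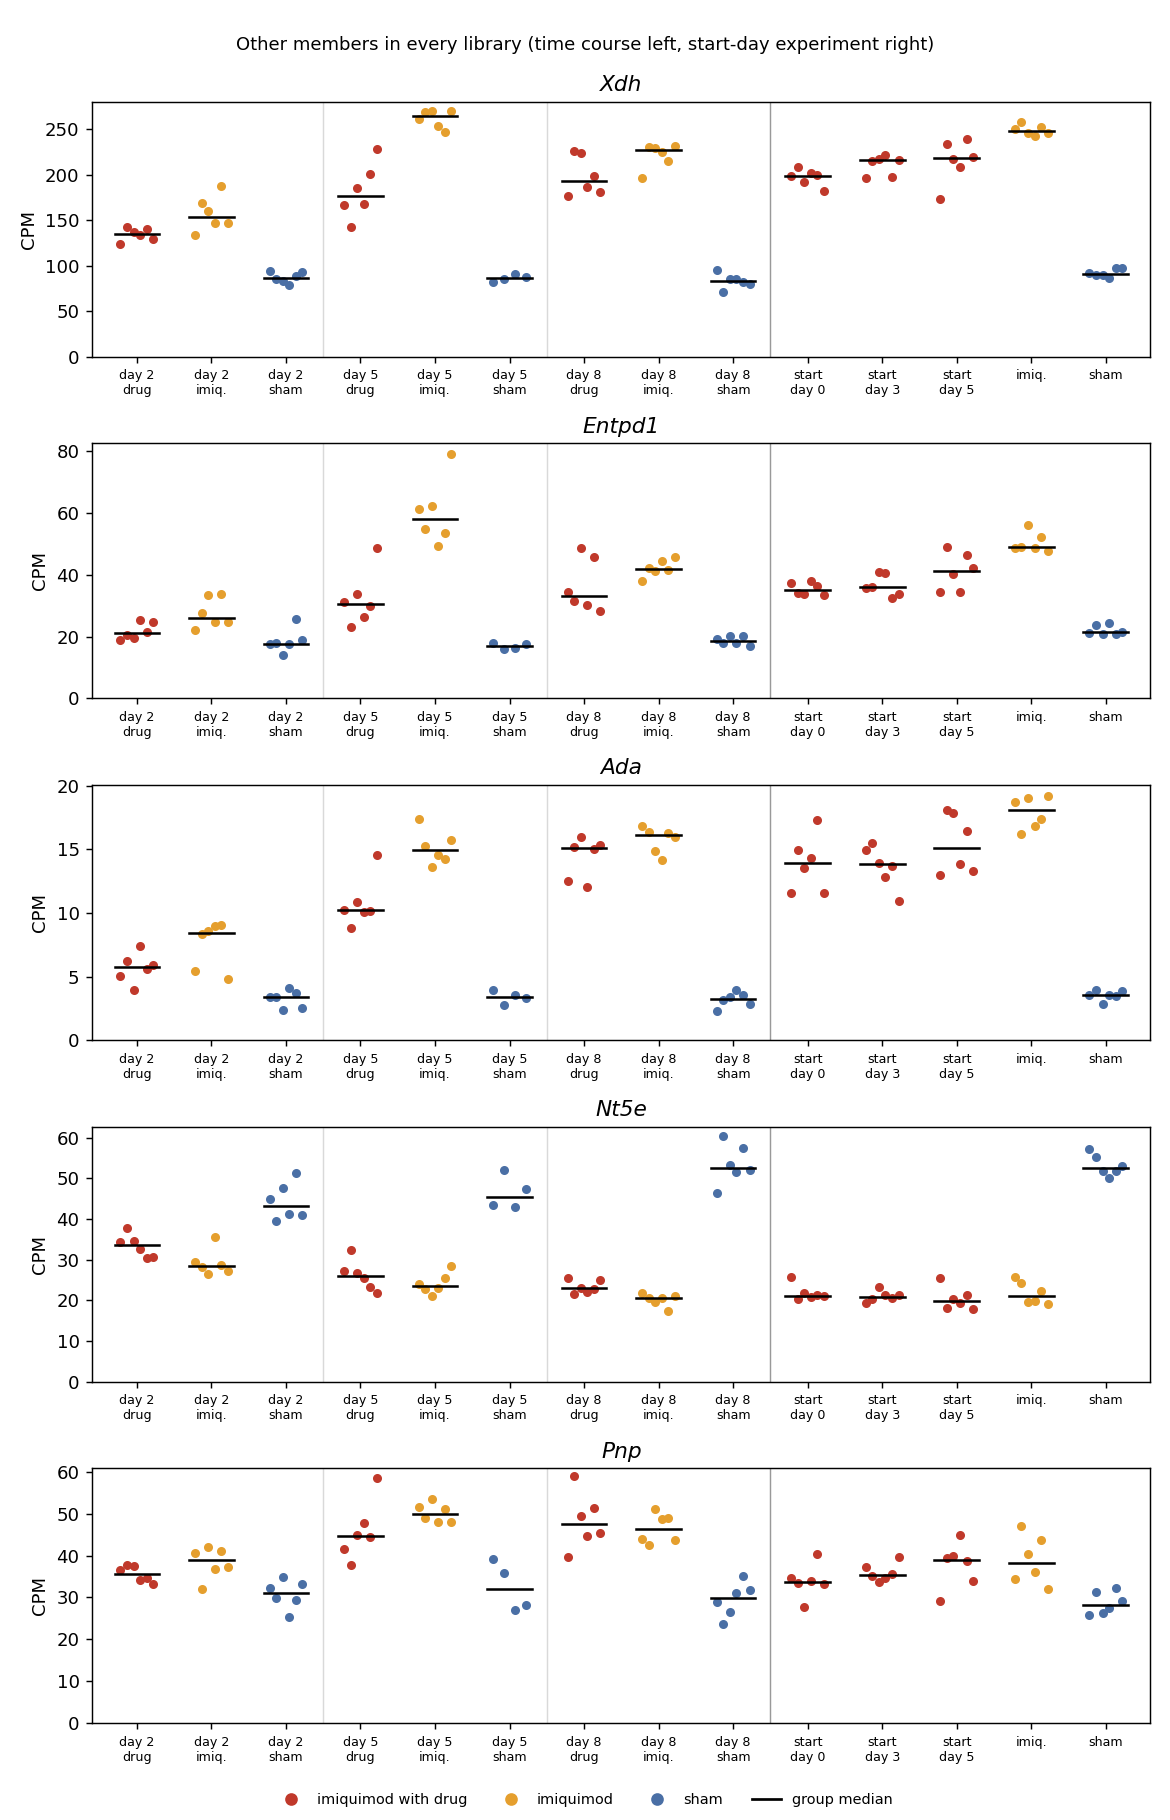
CPM of Xdh, Entpd1, Ada, Nt5e and Pnp in every library by group, on linear axes from 0; points are libraries and bars are group medians. Nt5e is lowest in treated ears, with a median of 20.5 CPM at day 8 of imiquimod, against 52.6 CPM in sham ears, while the other 4 are lowest in sham ears.

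The day 2 drug calls, those of Xdh and Ada, depended on single libraries. Neither was called without imiquimod library 8, 9 or 11, without 9 and 11 together, or without drug library 13 or 15. Without imiquimod library 10 Ada was not called (adjusted p = 0.0787), and without drug library 18 Xdh was not (0.0574). Neither was called in a fit of only the compared groups or with limma voom, and without imiquimod library 7 the count was 3. At day 8 edgeR called 0 of the 5, as did DESeq2 and limma voom, and 2 (Xdh and Nt5e) had an unadjusted p under 0.05. Of the 5 tested members, the ranges of drug and imiquimod ears did not overlap for 2 at day 5 (Entpd1 and Xdh), where 10.5% of all tested genes did not overlap, and for 0 at day 2 (1.74%) and day 8 (1.67%). The count was 2 with the drug from day 0 (16.1% of all genes), 3 from day 3 (15.8%) and 1 from day 5 (10.3%). Imiquimod and sham ears did not overlap for 3 of the 5 at day 2 (34.5% of all genes), for 5 at day 5 (57.2%) and at day 8 (48.3%), and for 4 in the start-day experiment (61.7%).

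Ears with imiquimod and the drug still differed from sham ears. Called were 3 of the 5 tested members at day 2, where 44.2% of all genes were called, and 5 of 5 at day 5 (60.3% of all genes), at day 8 (66.8%) and with the drug from day 0 (74.3%), day 3 (74.7%) and day 5 (75.5%). The members not called at day 2 were Entpd1 (log2 fold change 0.23) and Pnp (0.21, adjusted p = 0.0622). Pnp was called there in a fit of only the compared groups (adjusted p = 0.0236), with limma voom (0.0299), with the 3 overlapping genes summed (0.00474) and without sham library 3 (0.0374), and Entpd1 was called without sham library 5 (0.0498). At day 8 and from day 0 the log2 fold changes against sham were 1.26 and 1.10 for Xdh, 2.17 and 1.97 for Ada, 0.96 and 0.68 for Entpd1, -1.19 and -1.28 for Nt5e, and 0.71 and 0.24 for Pnp. The Pnp call from day 0 was lost with no filter on low counts (adjusted p = 0.0572), without drug library 29 (adjusted p = 0.0742) and without sham library 1 (0.0539) or 3 (0.0532).

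Between days, all 5 tested members changed from day 2 to day 5 in imiquimod ears and in drug ears, where 45.9% and 40% of all genes were called. Uox and Entpd3 were chosen for their response, so their differences between days of treated ears are also descriptions with no test. In imiquimod ears Uox was higher at day 5 than at day 2 by a log2 of 3.36 ± 0.49. The difference was 4.39 without day 2 library 11, 4.53 without day 2 libraries 9 and 11 and 4.31 with limma voom. For Entpd3 the difference was 2.92 ± 0.37. In drug ears it was 5.21 ± 0.67 for Uox and 2.17 ± 0.40 for Entpd3. The Entpd3 value was 1.38 without day 5 library 36 and 1.51 with limma voom. In imiquimod ears it was 1.12 for Entpd1, 1.00 for Ada, 0.74 for Xdh, 0.39 for Pnp and -0.28 for Nt5e, each called (adjusted p = 3.44e-11 to 0.00394). In drug ears it was 0.56 for Entpd1, 0.93 for Ada, 0.44 for Xdh, 0.36 for Pnp and -0.36 for Nt5e (adjusted p = 3.69e-07 to 0.00125).

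From day 5 to day 8, 3 of the 5 were called lower in imiquimod ears, where 11.8% of all genes were called: Entpd1 by -0.50 ± 0.14 (adjusted p = 0.0105), Nt5e by -0.26 ± 0.08 (adjusted p = 0.0327) and Xdh by -0.24 ± 0.07 (adjusted p = 0.0255). None of the 3 was called without day 5 library 30, and only 1, Entpd1, without day 8 library 48. Nt5e was also not called without day 5 library 29 or day 8 library 46, nor Xdh without day 8 library 44. In drug ears 1 of 5 was called, where 5.52% of all genes were: Ada was higher by 0.41 ± 0.13 (adjusted p = 0.0491). That call was lost with RLE scaling, with no filter, in a fit of only the compared groups and without day 5 library 31, 32, 33, 34 or 35 or day 8 library 52, 53, 55 or 56. Of the 5, only Nt5e was called between days 8 and 2 in sham ears, by 0.27 ± 0.08 (adjusted p = 0.0227, with 6.48% of all genes called). It was not called without day 2 library 2, 4 or 6 or day 8 library 38 or 41. In sham ears Uox held 10 counts in all at day 2 and 15 at day 8, too few to show a difference, and Entpd3 held 88 and 92.

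The size of the imiquimod difference changed among the 3 days for 4 of the 5 tested members, where 33.4% of all genes were called by the F test: Nt5e (adjusted p = 9.05e-07), Xdh (adjusted p = 1.62e-06), Entpd1 (adjusted p = 4.07e-05) and Ada (adjusted p = 5.88e-05). Pnp was not called (adjusted p = 0.0571). All 5 were called with DESeq2, with limma voom and with the 3 overlapping genes summed. All 5 were also called without day 2 imiquimod libraries 9 and 11 together, and without any 1 of imiquimod libraries 9, 11 and 45 or sham libraries 4, 19, 20, 41 and 42. The size of the drug difference changed among the days for 2 of the 5, Entpd1 (adjusted p = 0.0356) and Xdh (adjusted p = 0.0378), where 7.99% of all genes were called. Neither was called with no filter on low counts or without imiquimod library 25, 30 or 44 or drug library 31, 32, 34, 53 or 55, and 1 was called without imiquimod library 26, 27 or 48 or drug library 35 or 52. Ada, Pnp and Nt5e were not called (adjusted p = 0.337, 0.548 and 0.807).

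The start day made no called difference to the 5 tested members. The F test of edgeR over the 3 starts called 0 of the 5, with adjusted p-values of 0.407 to 0.855. Of all genes 0.00542% were called, and 2 members, Xdh and Entpd1, had an unadjusted p under 0.05. Between starts at day 5 and day 0, where 0.0217% of all genes were called, edgeR called 0 of the 5, as did DESeq2 and limma voom, and the same 2 members had an unadjusted p under 0.05. The log2 difference was 0.21 for Entpd1 and 0.13 for Xdh. For Uox and Entpd3, chosen for their response, it was 0.41 ± 0.27 and 0.31 ± 0.23, as a description with no test. Without day 5 start library 13, which held the lowest Uox value of its group, Xdh (0.18, adjusted p = 0.0155) and Entpd1 (0.26, adjusted p = 0.0456) were called. The time labels of these groups follow the start day (day 8, day 5 and day 3 for starts at days 0, 3 and 5), so the 2 cannot be told apart. A label of day 3 with a drug start on day 5 is not a day of sampling.

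Ordered by median, Uox was highest in imiquimod ears of the start-day experiment, then in imiquimod ears at day 5 and day 8, in the ears with the drug from day 5, day 3 and day 0, in drug ears at day 5 and day 8, in imiquimod and then drug ears at day 2, and last in the sham groups. Each group's range overlapped that of the next. The overlap of drug ears at day 8 (lowest library 7.48 CPM) with imiquimod ears at day 2 rested on imiquimod library 11, since the next library of that group had 7.00 CPM. Overlapping ranges do not show that neighbours are alike, and the fitted log2 fold change of drug ears against imiquimod ears at day 2 was -3.39 ± 0.74. For Nt5e the 4 sham groups came first, and a gap separated the lowest of them, at day 2 (lowest library 39.5 CPM), from drug ears at day 2 (highest library 37.8 CPM). For Xdh a gap lay between imiquimod ears of the start-day experiment (lowest library 243 CPM) and those at day 8 (highest library 231 CPM), and another between drug ears at day 2 and the sham groups. For Entpd1 a gap lay between imiquimod ears of the start-day experiment and those at day 8, and for Entpd3 between sham ears at day 5 (lowest library 0.872 CPM) and sham ears of the start-day experiment (highest library 0.856 CPM). Ada and Pnp had no such gap. Levels of the 2 experiments were scaled apart, which limits this order.

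Neutrophil markers moved with Uox and with most other members, as did markers of several other cell types. The summed level of 4 neutrophil genes (Cxcr2, Csf3r, Mmp8 and Retnlg) at day 5, given as the lowest, median and highest library, was 16.5, 35.6 and 94.2 CPM with the drug, 94.6, 158 and 191 CPM with imiquimod and at most 10.05 CPM in any sham library of the time course. At day 2 it was 4.86, 8.97 and 12.9 CPM with the drug and 10.1, 17.5 and 45.1 CPM with imiquimod, and at day 8 it was 39.9, 47.4 and 102 CPM with the drug and 48.9, 65.2 and 71.7 CPM with imiquimod. The drug and imiquimod groups of day 5 did not overlap, although drug library 36, at 94.2 CPM, lay close to the lowest imiquimod library. Those of days 2 and 8 overlapped. In the start-day experiment it was 36.8, 51.9 and 72.96 CPM with the drug from day 0, 37.2, 56.4 and 72.7 CPM from day 3, 38.5, 67.1 and 77.4 CPM from day 5, 91.9, 111 and 142 CPM with imiquimod alone and 3.06, 3.42 and 4.11 CPM in sham ears. Over the 52 libraries of the time course the log2 level of Uox correlated with this sum at r = 0.95 (0.51 after subtracting group means), and over the 30 start-day libraries at 0.99 (0.49). With S100a8 and S100a9 added to the sum, r was 0.97 (0.73) and 0.99 (0.54). These added genes made up most of that larger sum, whose median in imiquimod ears at day 5 was 5671 CPM, against 158 CPM without them. That r therefore mainly follows S100a8 and S100a9. The same 4-gene sum correlated with Xdh at 0.97 (0.62) and 0.99 (0.66), with Entpd1 at 0.96 (0.81) and 0.94 (0.57), and with Ada at 0.94 (0.42) and 0.98 (0.43). It correlated with Entpd3 at 0.87 (0.62) and 0.89 (0.64), with Pnp at 0.87 (0.26) and 0.71 (0.39) and with Nt5e at -0.88 (-0.25) and -0.94 (-0.24). With 6 summed macrophage markers r was 0.93 (0.75) and 0.95 (0.58) for Entpd1 and 0.91 (0.42) and 0.95 (0.47) for Uox. With keratinocyte markers it was 0.87 (0.03) and 0.94 (-0.42) for Uox. That macrophage sum was 298 to 668 CPM with the drug, 547 to 893 CPM with imiquimod and 177 to 234 CPM in sham ears at day 5. Macrophage markers gave 0.93 (0.58) and 0.87 (0.33) for Entpd3. Schwann cell markers went the other way, at -0.93 (-0.49) and -0.98 (-0.22) for Uox and -0.97 (-0.65) and -0.99 (-0.56) for Xdh. Endothelium markers gave -0.22 (0.27) and -0.69 (0.29) for Uox. The libraries of a group share their treatment, so a high r across groups is not particular to neutrophils. The part of these cells in the members' levels was not tested.

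**Figure D4:**
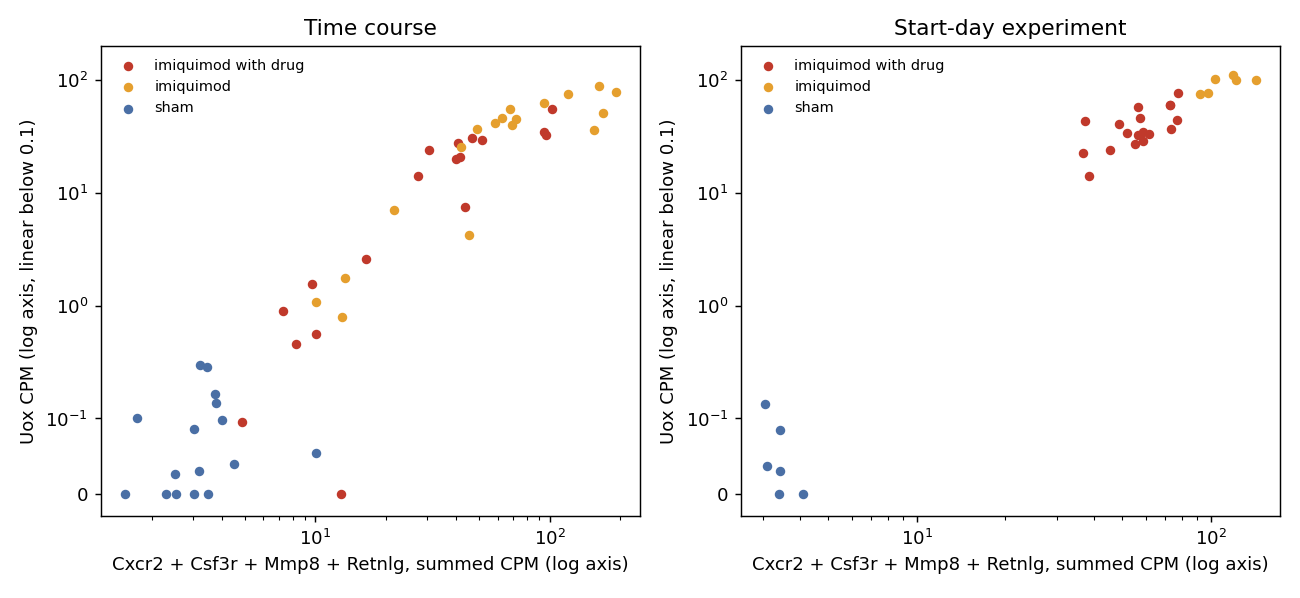
Uox CPM (vertical axis, log, linear below 0.1) against the summed CPM of Cxcr2, Csf3r, Mmp8 and Retnlg (horizontal log axis) in every library of the time course (left) and the start-day experiment (right), coloured by treatment. Sham libraries lie at the lower left, with Uox at most 0.299 CPM, and imiquimod libraries of the start-day experiment at the upper right, from 75.7 to 109.9 CPM.

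The members also moved with each other across groups. Over the time course Uox correlated with Xdh at 0.95, Ada at 0.95, Entpd1 at 0.90, Pnp at 0.86, Entpd3 at 0.85 and Nt5e at -0.90. After subtracting group means these were 0.62, 0.42, 0.45, 0.25, 0.43 and -0.33. Within groups of the start-day experiment the r of Uox with Entpd1 was 0.80 and with Ada 0.21. Among 12861 genes compared, those most like Uox over the 52 time-course libraries were Sprr2b, a cornified-envelope gene (r = 0.98, and 0.99 over the 30 start-day libraries), Ppard, a nuclear receptor for fatty acids (0.98 and 0.99), and Rab31, a vesicle-traffic GTPase (0.98 and 0.99). Xdh was most like Pgam1, Tmem51 and the basal keratin Krt14 (each 0.98 over the time course). Entpd1 was most like Csf2rb, the shared receptor chain for GM-CSF, IL-3 and IL-5 (0.98 and 0.97), Tnc (0.97 and 0.96) and Emilin2 (0.97 and 0.90). Among the genes most like Entpd3 were the interferon-induced Ifi207 (0.95 and 0.80) and the leukocyte gene Laptm5 (0.95 and 0.90). Ada was most like Slc25a39 (0.97 and 0.98), the glycolytic enzyme Eno1 (0.97 and 0.99) and Ckap4 (0.97 and 0.98). Nt5e was most like the ceramide synthase Cers5 (0.96 and 0.95), Abi3bp (0.95 and 0.95) and Ss18 (0.95 and 0.87), and Pnp like Cpne1 (0.91 and 0.67), Rnpep (0.91 and 0.67) and Erp29 (0.90 and 0.68). For these most alike genes r was not taken after subtracting group means. It therefore also follows the treatment that libraries of a group share, and joint regulation was not tested.

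The genes beside Uox held few counts, while of those beside Entpd3 Eif1b fell from day 5 on and Rpl14 rose. Dnase2b, which overlaps Uox by 34612 bases on the opposite strand in GENCODE M21, held 0 to 8 counts in any group, and 4930503B20Rik held 0 to 20. The strand setting of the counting is not given in the sources used here, but Dnase2b shared none of the 5086 stretches of 31 bases in the Uox transcripts. The neighbours of Entpd3 had log2 fold changes with imiquimod against sham of -0.07, -0.32 and -0.42 at days 2, 5 and 8 and -0.66 in the start-day experiment for the translation factor Eif1b, and of 0.16, 0.30, 0.23 and 0.21 for the ribosomal protein gene Rpl14. All were called except the day 2 value of Eif1b (adjusted p = 0.372). Neither gene was called with the drug against imiquimod at any time.

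Around the members, 69 further genes of purine handling in 9 lists were followed, of which the time course tested 62 and the start-day experiment 61. Imiquimod against sham called 26 higher and 16 lower at day 2, where 29.2% of all tested genes were called higher and 28.5% lower. The counts were 34 and 20 at day 5 (34.6% and 35.9% of all genes), 29 and 19 at day 8 (34.5% and 33.6%), and 32 and 16 in the start-day experiment (38.1% and 39.9%). In either direction these were 67.7%, 87.1%, 77.4% and 78.7% of the tested genes of the lists, with a median log2 fold change of 0.09, 0.26, 0.22 and 0.22 over the tested genes, against -0.03, -0.04, -0.01 and -0.02 over all genes. Counts of single lists, which are small, stand beside the same shares of all genes. Of 13 genes that build purines from simple precursors, 12 rose and 1 fell at day 2, 11 rose and 1 fell at day 5, 9 rose and 1 fell at day 8 and 9 rose and 2 fell in the start-day experiment. Both salvage genes, Hprt and Aprt, rose in each comparison. Of the 4 adenosine receptors, 3 fell on each day and 1 rose at day 5, and in the start-day experiment 2 fell. Of the 15 ATP and nucleotide receptors, 2 rose and 5 fell at day 2, 7 rose and 4 fell at day 5 and 6 rose and 4 fell at day 8. Of the 8 genes of nucleoside handling, 3 rose and 1 fell at day 2, and 6 rose and 2 fell in each other comparison. Of the 4 ATP release genes, 1 rose and 1 fell at day 2 and 1 rose and 3 fell at days 5 and 8. Of the 9 tested genes of purine catabolism beyond the members, 4 rose and 2 fell at day 2, 5 rose and 3 fell at day 5, 3 rose and 3 fell at day 8 and 6 rose and 1 fell in the start-day experiment. Of the 2 tested urate transporters, at most 1 was called in a comparison. Of the 5 tested extracellular hydrolases beside the members, 1 rose and 3 fell at days 2 and 8, 1 rose and 4 fell at day 5, and 2 rose and 3 fell in the start-day experiment.

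The named genes of these lists were chosen by size of change. With imiquimod against sham, Gda, which deaminates guanine to xanthine, had a mean of 116 CPM in imiquimod ears and 19.4 CPM in sham ears at day 5 (log2 fold change 2.57 ± 0.20, adjusted p = 1.06e-15), and differed by 1.23 ± 0.17 at day 2 and 1.87 ± 0.17 at day 8. Urah, the enzyme that acts on the product of Uox, had a mean of 394 CPM in imiquimod ears and 63.9 CPM in sham ears of the start-day experiment (2.63 ± 0.10, adjusted p = 4.70e-19), and differed by 1.73 ± 0.15 at day 2 and 1.93 ± 0.15 at day 8. Alpl, an alkaline phosphatase that can remove phosphate from extracellular nucleotides, rose by 2.43 ± 0.27 at day 5 and 1.97 ± 0.15 in the start-day experiment. The nucleoside transporters Slc29a2 at day 2 (1.32 ± 0.21), Slc28a2 at days 5 and 8 (2.56 ± 0.24 and 1.85 ± 0.20) and Slc28a3 in the start-day experiment (2.19 ± 0.09) rose too.

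P2rx2, an ATP-gated channel, fell most among these genes in each of the 4 imiquimod comparisons (mean log2 CPM of at least 0). Its mean was 0.814 CPM in imiquimod ears and 12.9 CPM in sham ears at day 5 (log2 fold change -3.96 ± 0.33, adjusted p = 1.03e-14), and it differed by -1.84 ± 0.28 at day 2, -3.03 ± 0.31 at day 8 and -5.09 ± 0.30 in the start-day experiment. Falling too were P2rx6 at day 2 (-0.996 ± 0.21), the nucleotide receptor P2ry4 at day 5 (-2.50 ± 0.24), the adenosine receptor Adora1 at days 5 and 8 (-1.83 ± 0.16 and -1.79 ± 0.15), the AMP deaminase Ampd1 at day 2 and in the start-day experiment (-1.24 ± 0.16 and -3.14 ± 0.14), and the pannexin channel Panx3 at day 8 and in the start-day experiment (-1.82 ± 0.18 and -2.88 ± 0.20).

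With the drug against imiquimod, 1 of the 62 genes was called higher and 16 lower at day 2, where 6.9% of all genes were called higher and 9.61% lower. The counts were 13 and 21 at day 5 (18.3% and 17.2% of all genes), and 2 and 0 at day 8 (1.22% and 0.335%). Of 61 genes, 12 were higher and 18 lower from day 0 (18.2% and 16.9% of all genes), 10 and 17 from day 3 (18% and 16.4%) and 9 and 14 from day 5 (15% and 12.7%). Lower were 8 of the 13 purine synthesis genes at days 2 and 5, 6 from day 0 and 7 from day 3 and day 5, and the 1 such gene called higher was in the day 0 start. Alpl had means of 6.29 CPM with the drug and 14.8 CPM with imiquimod at day 5 (-1.23 ± 0.22, adjusted p = 2.22e-05), and differed by -1.15 ± 0.15, -1.24 ± 0.15 and -1.10 ± 0.15 for the 3 starts. Slc29a2 was lower at day 2 (-0.87 ± 0.20) and by -0.72 ± 0.15, -0.70 ± 0.15 and -0.72 ± 0.15 for the 3 starts, as was the nucleotide receptor P2ry2 for the 3 starts (-0.71 ± 0.08, -0.74 ± 0.08 and -0.75 ± 0.08). Gda was lower at days 2 and 5 (-0.72 ± 0.16 and -0.97 ± 0.16), Urah at day 2 (-0.70 ± 0.14) and Slc28a2 at day 5 (-0.98 ± 0.19).

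Higher with the drug at day 5 and for the starts at days 0, 3 and 5 were P2rx2 (1.20 ± 0.34, 1.81 ± 0.34, 2.00 ± 0.33 and 1.73 ± 0.34), Panx3 (1.20 ± 0.18, 1.53 ± 0.20, 1.44 ± 0.20 and 1.31 ± 0.20) and P2ry4 (1.25 ± 0.23, 0.84 ± 0.16, 0.95 ± 0.16 and 0.84 ± 0.16). At day 8 Panx3 (0.69 ± 0.18, adjusted p = 0.0355) and the phosphatase Acp3, listed as Acpp (0.40 ± 0.09, adjusted p = 0.0154) were the pathway genes called, both higher, and at day 2 the nucleotidase Nt5c2 was the gene called higher (0.20 ± 0.07, adjusted p = 0.0436).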

How the data were processed

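Bulk RNA of 82 ear punches in 14 groups was measured. The values are estimated counts of each gene, made by the authors with salmon per the names of the deposited tables and against GRCm39 per the submitters' processing notes. The sources used here give no salmon version, annotation, strand setting or filter. Columns were matched to samples by title, with 0 left over.

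Counts were rounded to whole numbers. Each experiment was fitted apart in edgeR 4.0.16 (R 4.3.3) with all its groups in 1 fit: filterByExpr on group, TMM scaling, the robust quasi-likelihood F test and Benjamini-Hochberg adjustment over all tested genes, called at an adjusted p under 0.05. The step was tested on data simulated from imiquimod and drug ears at day 5, with changes put only into well-counted genes. That simulation did not cover genes with few counts, such as Uox in sham ears, or the F tests among days. A floor of 3 counts is 0.0777 to 0.228 CPM at these depths, and precision there is limited by counting error. Correlations used log2 CPM with a prior count of 2.

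The members and lists were chosen with earlier results of these data known. Named were all 7 members, in each of the imiquimod and drug comparisons up to 3 called pathway genes higher and 3 lower by size of log2 fold change (mean log2 CPM of at least 0), the 3 genes most like each member by Pearson r (mean log2 CPM of at least 1), and the neighbours of Uox and Entpd3. A gene that this rule names for Entpd3 is not reported here. Uox and Entpd3 were planned to have tests between days and between start days and are given none, a change made after the data were seen. Alternatives were DESeq2 1.42.0, limma voom 3.58.1 with sample weights, RLE scaling, no filter, a filter of 1 CPM in 4 libraries, only the compared groups, a log2 fold change of at least 1, leaving out libraries, and, added after seeing the data, Pnp summed with Pnp2 and Gm49342. Upstream sequences are RefSeq's (GRCm38.p6), shared stretches were counted in GENCODE M21 transcripts, and annotation coordinates in GRCm38 were not carried over to GRCm39. Figures were drawn with matplotlib.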

Additional observations from a re-analysis of the deposited data

Results flagged for a closer look

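Of 98 groups of a member's values, 7 held a library whose gap to the nearest other passed Dixon's 95% limit, and chance gives about 1 in 20. For Uox these were day 2 imiquimod library 11 (25.2 CPM, next 7.00 CPM) and day 2 sham library 6 (0.284 CPM, next 0.102 CPM). Drug library 36 of day 5 stood above its group in both Entpd3 (7.61 CPM, next 2.30 CPM) and Ada (14.5 CPM, next 10.8 CPM). The others were Entpd3 in day 2 sham library 2 (0.855 CPM, next 0.616 CPM), and Nt5e in day 2 imiquimod library 10 (35.5 CPM, next 29.4 CPM) and in library 25 of the drug from day 0 (25.7 CPM, next 21.7 CPM).

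The difference between imiquimod and sham ears changed among days 2, 5 and 8 for Nt5e (edgeR F test, adjusted p = 9.05e-07), Xdh (1.62e-06), Entpd1 (4.07e-05) and Ada (5.88e-05). The difference between drug and imiquimod ears changed among these days for Entpd1 (adjusted p = 0.0356) and Xdh (0.0378).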

How the results depend on the processing

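No paired analysis was possible because no 2 groups of an experiment share a replicate number. Each member's log2 fold changes were recomputed under each alternative, and the F tests as counts of members called, which are given apart. The tally below leaves out some members in comparisons of day 8 with an earlier day and of start days. Untested values of Uox and Entpd3 have no call, and count as kept with the same sign and a move of less than 1 SE. Among log2 fold changes with 1 library left out, 1531 kept their direction and call, 37 lost the call, 9 gained it, 7 untested values moved and 8 changed sign. Among the other alternatives these were 818, 11, 7, 7 and 5. Sign changes were all in values near 0. For Nt5e with the drug from day 0 against imiquimod, the log2 fold change was -0.00983 with DESeq2, -0.00980 with RLE scaling, -0.00419 with a filter of 1 CPM and -0.00587 with no filter, and -0.0483 to 0.0552 with 1 library left out. It was -0.0821 to 0.002498 for Nt5e from day 3, -0.104 to 0.0156 for Pnp from day 5 (0.00964 with limma voom) and -0.0142 to 0.106 for Pnp at day 8. The cause was not tested.

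For the drug against imiquimod at day 2, where 2 members were called, limma voom, a fit of only the compared groups and leaving out libraries 9 and 11 each gave 0, no filter gave 1, and leaving out 1 library gave 0 to 3. For drug ears at day 8 against day 5, where 1 was called, RLE scaling, no filter and a fit of only the compared groups gave 0, and leaving out 1 library gave 0 to 1. For the drug difference among days, where 2 were called, no filter gave 0 and leaving out 1 library gave 0 to 2. With 1 library left out, the start at day 5 against day 0 gave 0 to 2, imiquimod at day 8 against day 5 gave 0 to 3, and sham at day 8 against day 2 gave 0 to 1. Where a call also needed a log2 fold change of at least 1, imiquimod against sham gave 1 at day 2 (10.4% of all genes called under that rule), 3 at day 5 (26.4%), 4 at day 8 (21.7%) and 4 in the start-day experiment (29.4%). The drug against sham gave 0 at day 2 (5.47%), 2 at day 5 (14.6%) and 3 at day 8 (19.1%), and 3 each for the starts at days 0, 3 and 5 (22.9%, 24.1% and 24.9%). Day 5 against day 2 gave 2 in imiquimod ears (9.34%) and 0 in drug ears (4.98%). Under that rule the drug against imiquimod gave 0 at days 2 and 5 (1.12% and 4.89%) and for each start (3.13%, 2.59% and 1.96%), and day 8 against day 5 in imiquimod ears (1.19%) or drug ears (0.687%) and sham at day 8 against day 2 (0.357%) gave 0. Fitted Uox differences against sham are limited by the few sham counts.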
